A study of Mus musculus with 8 samples.

Results

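The genes described here encode the machinery that carries newly made proteins between the endoplasmic reticulum (ER) and the Golgi, in pancreatic islets of NOD mice given PAHSA or vehicle. They were chosen by name, with earlier results of these data known. The list held 50 names of coat subunits, small GTPases, cargo receptors, tethers and 1 regulator. Sec12 is another name of Preb, which leaves 49 genes. All 49 were found among the 13725 genes of the deposited table, and all 49 passed the filter on low values (a mean above 0 log2 CPM over all libraries), as did 12231 genes in all.

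COPII coats bud vesicles from ER exit sites: the exchange factor Preb loads the GTPase Sar1, which recruits the inner coat of Sec23 and Sec24 and then the outer cage of Sec13 and Sec31. COPI coats, recruited as a preassembled coatomer by Arf GTPases, carry escaped ER proteins and cargo receptors back from the Golgi. Beta cells send a large flow of proinsulin along this route, and professional secretory cells in general depend on it.

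The study compared islets from 10-week-old female mice of the NOD strain, an inbred line that develops autoimmune diabetes, after treatment with PAHSA (spelled PASHA in the sample labels), palmitic acid esters of hydroxy stearic acids, with islets from vehicle-treated females of the same strain and age. There were 4 PAHSA libraries, numbered 1, 2, 3 and 4, and 4 vehicle libraries, numbered 1, 3, 4 and 5. The design text speaks of 4 mice per treatment, whereas the protocol speaks of islets pooled from 2 mice, so p-values measure the spread between libraries. Whether the 4 libraries of a group came from separate mice cannot be told from these texts. Dose, route and length of treatment were not given in the sources used here. Below, 4 values of a group always follow the order of these library numbers.

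Whole islets are a mixture of cells, and in bulk RNA fewer cells of a type cannot be told apart from less RNA per cell. The 9 beta cell markers together took 14.1% to 17.6% of CPM (counts scaled by library size) in PAHSA libraries and 13.7% to 17.97% in vehicle libraries, and the 5 alpha cell markers took 6.67% to 8.09% in PAHSA and 6.08% to 6.96% in vehicle libraries, so islet RNA was present in every library. These shares, like those of other markers below, were not divided by the totals of the deposited CPM, which ran from 965680 to 1069261. On the log2 scale the beta cell markers moved with the groups: their mean was 10.12, 10.02, 9.96 and 9.99 log2 CPM in the PAHSA libraries, against 9.804, 9.61, 9.76 and 9.83 in the vehicle libraries, with no overlap. Of these 9 markers 7 had positive differences. At an unadjusted p under 0.05 in limma, 3 of the 9 were higher (against 3.02% of all genes tested). Among these was Ucn3 at 0.77 (SE 0.15, limma adjusted p = 0.671), and 0 of the 9 passed an adjusted p of 0.05. The part of the beta cell markers in the results below was not tested. Depth, recovered from the step between the lowest values, was 35356278 to 39359123 estimated counts in PAHSA libraries and 34461742 to 45236238 in vehicle libraries. The lowest value of any member was 3.55 log2 CPM (Sec24a in PAHSA replicate 1), so counting error is small beside the spread between libraries. The median SE of a member's difference was 0.11 log2 units, against 0.25 over all genes tested.

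Most members had slightly lower levels in PAHSA than in vehicle islets, and none passed the test over all genes. Of 49 members, 40 had a negative difference (81.6%, against 50.9% of all genes tested) and 9 a positive one. The median difference of the members was -0.11 on the log2 CPM scale, against -0.0056 over all genes tested. The ends of the range were Sec24a at 0.676-fold and Sec16b at 1.36-fold the vehicle level. In limma, 0 of 49 members and 0 of 12231 genes (0%) passed an adjusted p of 0.05, and the smallest adjusted p of a member was 0.671; at an unadjusted p under 0.05 there were 894 genes in both directions. At an unadjusted p under 0.05, 7 members were lower (14.3%, against 4.29% of all genes tested) and 0 were higher (against 3.02%). They were Creb3l2, Tmed2, Copb2, Lman1, Sec24a, Arfgap1 and Uso1, which fall into 7 of the 8 role groups, the KDEL receptors having none. The 4 PAHSA values all lay below the 4 vehicle values for 4 members, Creb3l2, Tmed2, Sec24a and Arfgap1 (8.16%, against 1.95% of all genes tested), and above them for 0 members (against 2.06%). Because the members were chosen with earlier results of these data known, these shares describe the list and are not independent support.

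These counts depended on 1 library and on the scaling. Without PAHSA replicate 1, 33 of 49 members were lower, their median was -0.042 and 2 of them, Creb3l2 and Tmed2, were at an unadjusted p under 0.05 (against 3.61% of all genes in that direction). Under quantile normalization 29 of 49 were lower, with a median of -0.047 where the median of all genes was 0.017, and 3 (Creb3l2, Sec24a and Arfgap1) were lower at an unadjusted p under 0.05 (against 3.66% of all genes). Leaving out 1 library moved the difference of 39 of the 49 members by over 1.5 times (up, down or to the other sign). The number was 26 when that library was PAHSA replicate 1. Small differences cross this ratio easily, and those of 21 members were under 0.1 in size. The same count over all genes was not made, so these 2 numbers do not set the members apart from other genes.

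**Figure D1:**
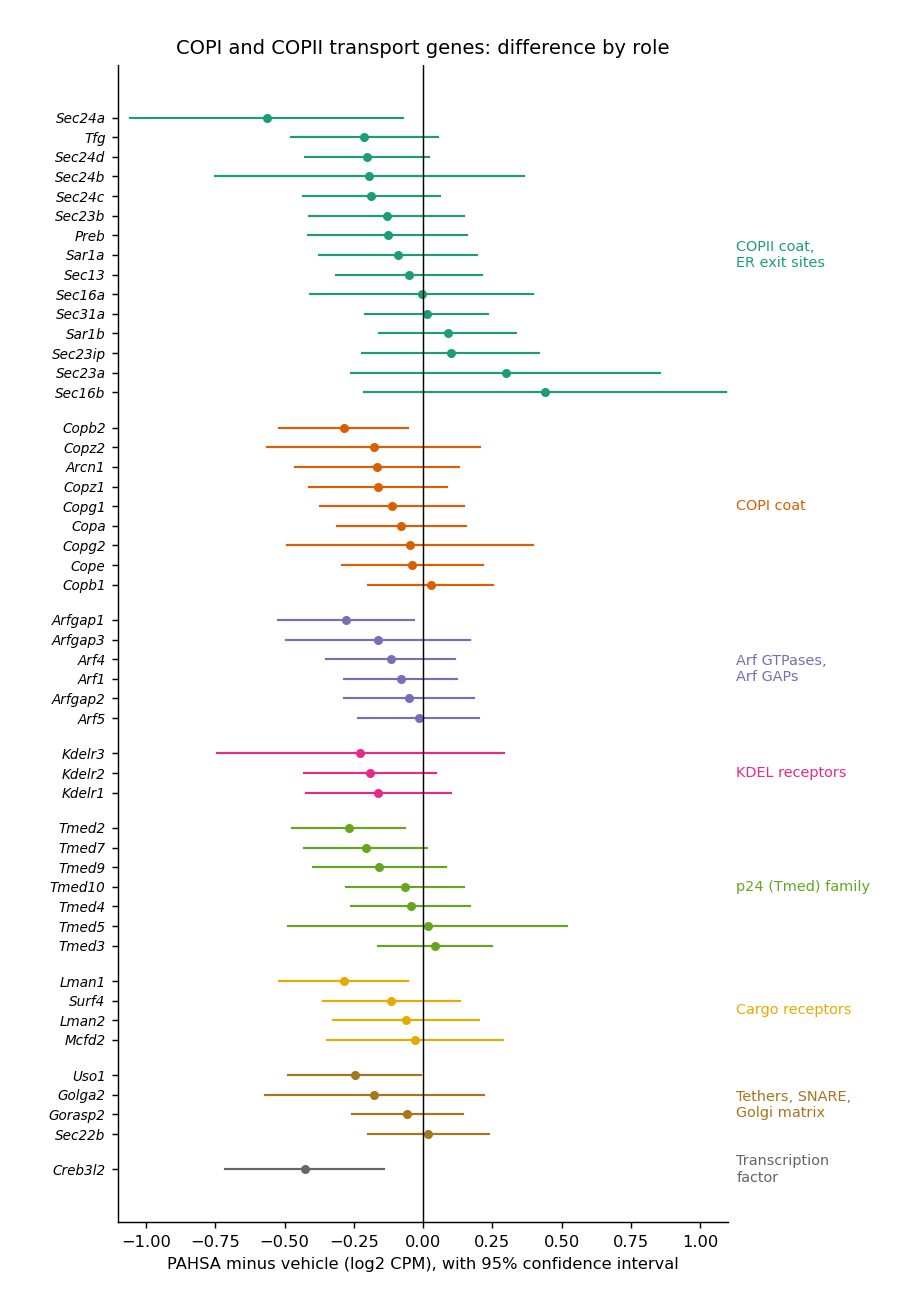
Difference between PAHSA and vehicle islets for each of the 49 members on the log2 CPM scale (x axis), grouped and coloured by role; points are limma estimates over 4 and 4 libraries and lines their 95% confidence intervals. Points of 40 members lie left of 0, and the intervals of 7 of them do not reach 0 before adjustment.

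PAHSA replicate 1 stood apart from the other libraries in these genes. The measures below were made for the members only, and whether genes in general were low in this library was not tested. Of 49 members, 44 were below their own mean over the 8 libraries there, against 20, 36 and 19 in PAHSA replicates 2, 3 and 4 and 20, 8, 20 and 20 in vehicle replicates 1, 3, 4 and 5. It was the lowest of the 8 libraries for 25 members, including 6 of the 7 named above. The median deviation of the members from their own means was -0.18, 0.05, -0.065 and 0.024 log2 units in PAHSA replicates 1, 2, 3 and 4, against 0.035, 0.066, 0.064 and 0.052 in vehicle replicates 1, 3, 4 and 5. The vehicle libraries thus lay close together, while PAHSA replicates 2 and 4 were near them and PAHSA replicates 1 and 3 below. Summed over the members, expression was 11317, 13769, 12628 and 13979 CPM in PAHSA replicates 1, 2, 3 and 4, against 13859, 14075, 13925 and 13881 CPM in vehicle replicates 1, 3, 4 and 5, with PAHSA replicate 4 inside the vehicle range. The sums were not divided by the totals of the deposited CPM, which ran from 965680 in PAHSA replicate 1 to 1069261 in vehicle replicate 4. The narrow vehicle range thus holds for the deposited scaling only.

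Markers of other cell types moved with the groups as well. The 15 acinar markers, products of the secretory cells around the islets that are themselves rich in ER and Golgi, had means of 7.31, 9.40, 8.71 and 4.06 log2 CPM in the PAHSA libraries, against 8.84, 8.81, 10.79 and 10.18 in the vehicle libraries, and their difference was negative for 15 of 15. They took 0.0341% to 1.498% of CPM in PAHSA libraries and 0.992% to 3.94% in vehicle libraries. With their mean as a covariate, 42 of 49 members had a negative difference, the median was -0.0940 and 7 members were lower at an unadjusted p under 0.05 (against 4.62% of all genes). Sec24a was no longer among these 7 and Tmed7 was. The 8 stellate cell and fibroblast markers had means of 1.04, 2.28, 1.12 and 3.10 log2 CPM in the PAHSA libraries, against 4.53, 4.37, 3.08 and 2.39 in the vehicle libraries, with 8 of 8 lower, and took 0.00369% to 0.0139% of CPM in PAHSA and 0.00782% to 0.0303% in vehicle libraries. By mean log2 CPM, PAHSA replicates 1 and 3 were the lowest in these markers, whereas by share of CPM vehicle replicate 5 (0.00782%) was below PAHSA replicate 3 (0.00865%). Dcn was -4.61 in PAHSA replicate 1 and -4.73 in replicate 3, not far above the lowest values of those libraries (-6.19 and -6.31). Rgs5 and Pdgfra were also below 0 in libraries of both groups. The log2 mean, and with it the covariate, thus leaned on genes with very few counts. Their part in the fit was not tested. With the stellate mean as a covariate, 25 of 49 members had a negative difference, the median was -0.020 and 0 were at an unadjusted p under 0.05 in either direction (against 2.97% of all genes lower and 2.36% higher). Of the 8 duct markers 7 were lower, and their means were 6.54 to 7.30 log2 CPM in PAHSA and 7.26 to 7.65 in vehicle libraries; their part in the result was not tested.

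**Figure D2:**
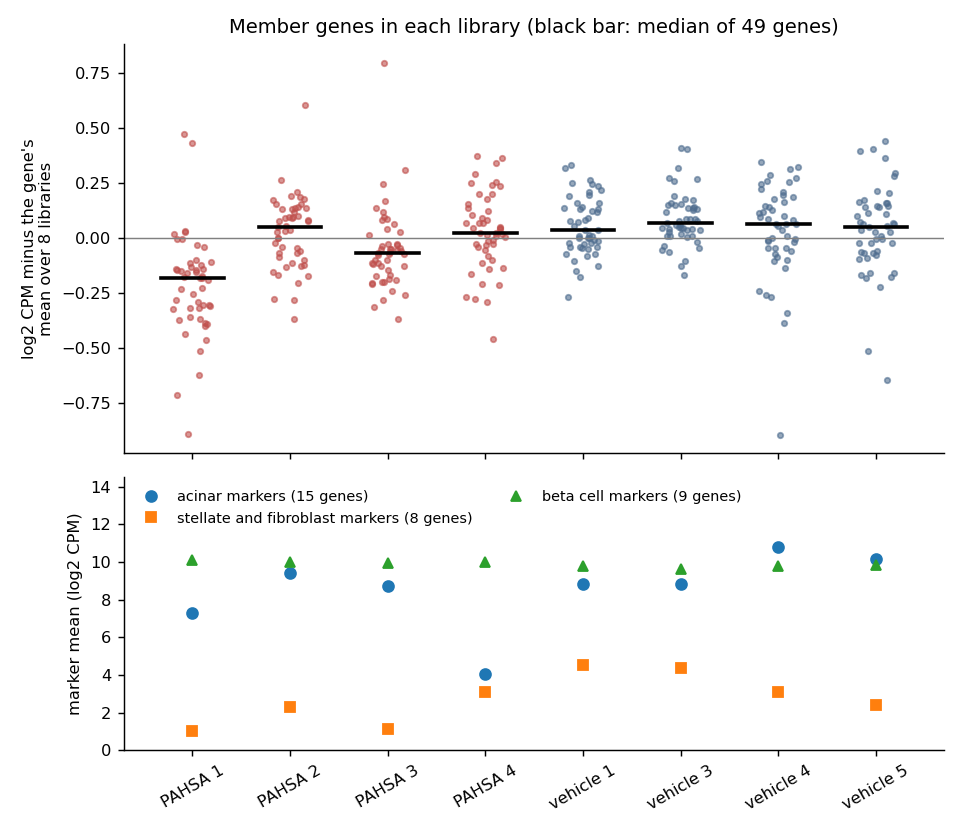
Upper panel: each point is 1 of the 49 members in 1 library, as its log2 CPM minus its own mean over the 8 libraries, with the median as a black bar. Lower panel: mean log2 CPM of 3 marker lists in the same libraries. PAHSA replicate 1 has the lowest median of the members (-0.18), and the medians of the vehicle libraries lie between 0.035 and 0.066.

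Creb3l2 had the smallest p among the members. It encodes an ER-anchored transcription factor of the CREB3 family that is cleaved in the Golgi and switches on COPII genes, with Sec23a as its known target in cartilage. In the PAHSA libraries Creb3l2 had 6.35, 6.81, 6.50 and 6.73 log2 CPM, against 7.06, 6.84, 7.10 and 7.11 in the vehicle libraries. All 4 PAHSA libraries were below the lowest vehicle library, replicate 3. The difference was -0.43 (SE 0.13, limma unadjusted p = 0.00724, adjusted p = 0.671), or 0.743-fold, and became -0.34 without PAHSA replicate 1, -0.41 under quantile normalization and -0.35 (adjusted p = 0.947 in limma) with the stellate mean as a covariate. Creb3l2 (ENSMUSG00000038648, protein-coding) spans positions 37327255 to 37442146 of chromosome 6 in GRCm38.

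Since a regulator of secretory genes was among the members, their promoters (250 bases before to 50 after each start, RefSeq, GRCm38.p6) were searched on both strands for letters that bZIP factors of the CREB3, ATF6 and XBP1 kind are known to read. RefSeq entries were matched for 44 of the 49 genes, with 49 promoters. TGACGTG occurred in 8 of the 49 promoters (16.3%, from 7 genes), against 2.01% of all 32851 promoters. Overlapping promoters of Arf1 hold the same genomic match, so 1 site is counted more than once in the 8. All 32851 promoters were counted in the same way. TGACGTCA, the cyclic AMP response element, was in 1 (Cope; 2.04%, against 1.79%), and the ER stress elements ERSE and ERSE-II were in 0 (against 0.119% and 0.0365%). Shorter strings that overlap these were also more frequent among members, TGACG in 51.0% against 20.8% and CCACG in 73.5% against 32.8%, while CCAAT was in 38.8% against 37.4%. Member promoters had a mean GC content of 61.3% ± 8.46 (SD, n = 49), against 53.8% ± 11.3 over all promoters, and the part of this in the counts was not tested. The stretches that hold TGACGTG are shown for all 7 genes, 5′ to 3′ on the gene's strand, with the match in capitals; on the other strand it reads CACGTCA. Only 28 bases are given where the match reaches the transcribed part.
Sec16b (chr1:157506707-157506795, plus strand): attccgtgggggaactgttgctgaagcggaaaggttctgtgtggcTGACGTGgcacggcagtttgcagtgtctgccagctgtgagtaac
Sec24d (chr3:123267425-123267495, plus strand): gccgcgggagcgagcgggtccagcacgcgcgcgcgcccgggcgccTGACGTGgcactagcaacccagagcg
Copb1 (chr7:114254681-114254752, minus strand): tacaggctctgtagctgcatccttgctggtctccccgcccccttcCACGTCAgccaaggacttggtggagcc
Copb2 (chr9:98563714-98563741, plus strand): cccggaagttcCACGTCAgtgggttggc
Arf1 (chr11:59228195-59228291, minus strand): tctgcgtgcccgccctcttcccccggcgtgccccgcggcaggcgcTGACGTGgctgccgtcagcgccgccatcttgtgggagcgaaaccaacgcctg
Sec23a (chr12:59011995-59012022, minus strand): ctcctccccttTGACGTGgcagaggcgg
Kdelr3 (chr15:79516334-79516407, plus strand): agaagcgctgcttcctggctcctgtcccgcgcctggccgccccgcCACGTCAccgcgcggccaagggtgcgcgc
The matches lay between 84 bases before and 13 bases after the start in the windows shown. Both Arf1 starts of the table hold the same genomic match, which is shown once. In PAHSA islets these 7 genes had no common direction: Copb2 (-0.29), Kdelr3 (-0.23), Sec24d (-0.20) and Arf1 (-0.08) had negative differences, and Copb1 (0.027), Sec23a (0.30) and Sec16b (0.44) positive ones, of which that of Copb1 turned negative with the acinar covariate and that of Arf1 positive under quantile normalization.

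Among the 15 genes of the COPII coat and ER exit sites, 10 had a negative and 5 a positive difference, with a median of -0.092 (9 and 6, with -0.017, under quantile normalization). At an unadjusted p under 0.05 there was 1 lower gene (6.67%, against 4.29% of all genes tested), a share near the background. That gene was Sec24a, 1 of 4 Sec24 paralogues, the subunits that bind cargo. Values of Sec24a were 3.55, 3.89, 4.21 and 4.27 log2 CPM across the PAHSA libraries, against 4.35, 4.58, 4.58 and 4.66 across the vehicle libraries. The PAHSA values lay below all vehicle values, with a difference of -0.57 (SE 0.22, limma unadjusted p = 0.0281, adjusted p = 0.671). Sec24a (ENSMUSG00000036391, protein-coding) spans positions 51692264 to 51763634 of chromosome 11 in GRCm38. Its closest relative Sec24b differed by -0.19 (SE 0.25), and PAHSA replicate 1 was far below the other libraries in it, at 4.54 log2 CPM where the others had 5.19 to 5.70.

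Sec24c and Sec24d form the other pair of cargo-binding subunits. Sec24d was at 7.62, 7.88, 7.87 and 7.98 log2 CPM across the PAHSA libraries, against 8.10, 8.01, 8.12 and 7.93 across the vehicle libraries. Only PAHSA replicate 4 reached into the vehicle range, and the difference was -0.20 (SE 0.10, limma unadjusted p = 0.0699, adjusted p = 0.708), and -0.13 without PAHSA replicate 1. In the PAHSA libraries Sec24c had 7.68, 7.99, 8.06 and 7.65 log2 CPM, against 7.94, 8.09, 8.002 and 8.10 in the vehicle libraries. Here PAHSA replicates 2 and 3 lay within the vehicle range while replicates 1 and 4 were below it, for a difference of -0.19 (SE 0.11, limma unadjusted p = 0.127, adjusted p = 0.748). It was -0.12 without PAHSA replicate 4 and -0.041 with the acinar covariate. All 4 Sec24 genes thus had negative differences, although that of Sec24b turned positive (0.14) with the stellate covariate and also without PAHSA replicate 1 (0.069).

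Values of Tfg were 7.08, 7.35, 7.06 and 7.12 log2 CPM across the PAHSA libraries, against 7.19, 7.3997, 7.61 and 7.27 across the vehicle libraries. Tfg, which organises ER exit sites and helps uncoated vesicles cluster, differed by -0.21 (SE 0.12, limma unadjusted p = 0.105, adjusted p = 0.734), and by -0.13 without vehicle replicate 4, and the groups overlapped through PAHSA replicate 2. The GTPases differed by -0.092 (SE 0.13) for Sar1a and 0.088 (SE 0.11) for Sar1b, and Preb by -0.13 (SE 0.13). For the cage subunits Sec13 and Sec31a the differences were -0.050 (SE 0.12) and 0.013 (SE 0.10), both smaller than their SE and of a sign that changed under alternatives. Sec23b, the main inner coat GTPase-activating subunit, differed by -0.13 (SE 0.13) and Sec23ip, which binds it, by 0.099 (SE 0.15). Sec16a, the scaffold of exit sites, differed by -0.0059 (SE 0.18).

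The 2 members with the largest positive differences were the minor paralogues Sec23a and Sec16b. Sec23a was at 5.92, 5.75, 5.50 and 5.37 log2 CPM across the PAHSA libraries, against 5.80, 5.62, 4.59 and 5.33 across the vehicle libraries. Vehicle replicate 4 was far below the other libraries, and without it the difference was 0.050 in place of 0.30 (SE 0.25). In the PAHSA libraries Sec16b had 3.94, 4.91, 5.10 and 4.14 log2 CPM, against 4.44, 4.13, 3.96 and 3.79 in the vehicle libraries. PAHSA replicates 2 and 3 were high and replicates 1 and 4 within the vehicle range, for a difference of 0.44 (SE 0.30). It was 0.25 without PAHSA replicate 3 and 0.21 with the replicate block, to which only the label numbers 1, 3 and 4 contribute.

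**Figure D3:**
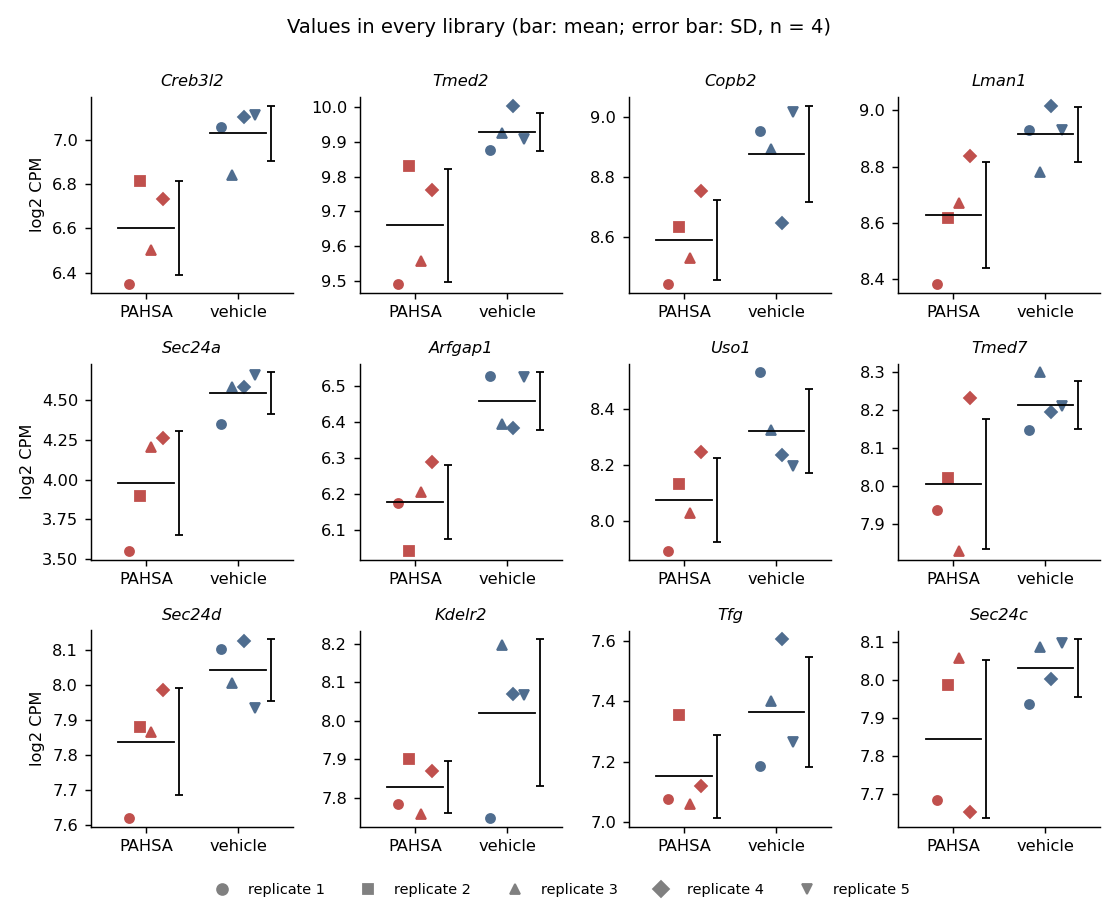
Log2 CPM in every library (y axis, each panel on its own scale) of the 12 members with the smallest unadjusted p, PAHSA libraries left and vehicle libraries right; marker shapes give the replicate number in the labels, bars the mean and error bars the SD of 4 libraries. Creb3l2, Tmed2, Sec24a and Arfgap1 do not overlap between the groups, and PAHSA replicate 1 (circles) is the lowest of the 8 libraries in Creb3l2, Tmed2, Copb2, Lman1, Sec24a, Uso1 and Sec24d.

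In the COPI coat 8 of 9 genes had a negative difference and Copb1 a positive one of 0.027, with a median of -0.11 (5 negative of 9, with -0.047, under quantile normalization). At an unadjusted p under 0.05 there was 1 lower gene of the 9 (11.1%, against 4.29% of all genes tested). This was Copb2, the beta-prime subunit that binds dilysine retrieval signals. Values of Copb2 were 8.44, 8.63, 8.53 and 8.75 log2 CPM across the PAHSA libraries, against 8.95, 8.89, 8.65 and 9.02 across the vehicle libraries. Vehicle replicate 4 lay among the PAHSA values and the other 3 vehicle libraries lay above them all. The difference was -0.29 (SE 0.11, limma unadjusted p = 0.0200, adjusted p = 0.671). It was -0.36 without vehicle replicate 4 and -0.17 with the stellate covariate. Copb2 (ENSMUSG00000032458, protein-coding) spans positions 98563721 to 98588382 of chromosome 9 in GRCm38. Of its partner subunits, Arcn1, the delta subunit, differed by -0.17 (SE 0.13), Copa, the alpha subunit, by -0.079 (SE 0.11), Cope, the epsilon subunit, by -0.039 (SE 0.12) and Copg1, the main gamma subunit, by -0.11 (SE 0.12). The intervals of these differences overlapped with that of Copb2. Under quantile normalization Copa, Cope and Copg1 had small positive differences (0.099, 0.058 and 0.018).

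Arf GTPases recruit coatomer and Arf GAPs end the cycle by driving GTP hydrolysis. All 6 genes of this group had negative differences, between -0.28 and -0.016, with a median of -0.099, though Arf1 and Arf5 turned positive under quantile normalization. Arfgap1 was at 6.18, 6.04, 6.21 and 6.29 log2 CPM across the PAHSA libraries, against 6.53, 6.39, 6.38 and 6.52 across the vehicle libraries. For Arfgap1 the highest PAHSA value was below the lowest vehicle value, and the difference was -0.28 (SE 0.11, limma unadjusted p = 0.0302, adjusted p = 0.671). Arfgap1 (ENSMUSG00000027575, protein-coding) spans positions 180967225 to 180982526 of chromosome 2 in GRCm38. The other GAPs Arfgap2 and Arfgap3 differed by -0.051 (SE 0.11) and -0.16 (SE 0.15). Among the GTPases, Arf1 differed by -0.080 (SE 0.092), Arf4 by -0.12 (SE 0.10) and Arf5 by -0.016 (SE 0.099).

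KDEL receptors catch ER chaperones that escaped to the Golgi and return them in COPI vesicles. All 3 had negative differences, also under quantile normalization (medians -0.19 and -0.15). In the PAHSA libraries Kdelr2 had 7.78, 7.90, 7.76 and 7.87 log2 CPM, against 7.75, 8.20, 8.07 and 8.07 in the vehicle libraries. Vehicle replicate 1 was the lowest of the 8 libraries and the other 3 vehicle values lay above all PAHSA values. The difference of Kdelr2 was -0.19 (SE 0.11, limma unadjusted p = 0.103, adjusted p = 0.732), and -0.28 (adjusted p = 0.807 in limma) without vehicle replicate 1. Kdelr1 differed by -0.16 (SE 0.12), and by -0.084 without vehicle replicate 4. Kdelr3 differed by -0.23 (SE 0.23), and by -0.056 without PAHSA replicate 1.

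The p24 proteins of the Tmed family cycle between ER and Golgi as cargo receptors and coat adaptors. Of 7 genes, 5 had negative differences and Tmed3 and Tmed5 small positive ones (0.042 and 0.017), with a median of -0.066. Under quantile normalization 3 of 7 were negative and the median was 0.0043, so the family had no stable direction. Values of Tmed2 were 9.49, 9.83, 9.56 and 9.76 log2 CPM across the PAHSA libraries, against 9.88, 9.93, 10.00 and 9.91 across the vehicle libraries. The highest PAHSA library, replicate 2, was just below the lowest vehicle library, replicate 1. Tmed2 differed by -0.27 (SE 0.092, limma unadjusted p = 0.0143, adjusted p = 0.671), 0.830-fold, and by -0.11 (adjusted p = 0.815 in limma) under quantile normalization. Tmed2 (ENSMUSG00000029390, protein-coding) spans positions 124540695 to 124550506 of chromosome 5 in GRCm38. Tmed7 was at 7.94, 8.02, 7.83 and 8.23 log2 CPM across the PAHSA libraries, against 8.15, 8.30, 8.20 and 8.21 across the vehicle libraries. PAHSA replicate 4 was above 3 of the vehicle libraries in Tmed7, and the difference was -0.21 (SE 0.10, limma unadjusted p = 0.0653, adjusted p = 0.704). It was -0.32 with the acinar and -0.071 with the stellate covariate. Tmed9 differed by -0.16 (SE 0.11), Tmed10, the usual partner of Tmed2, by -0.066 (SE 0.097) and Tmed4 by -0.045 (SE 0.098).

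Lman1, the lectin receptor that with Mcfd2 exports glycoproteins such as coagulation factors, was the cargo receptor with the smallest p. In the PAHSA libraries Lman1 had 8.38, 8.62, 8.67 and 8.84 log2 CPM, against 8.93, 8.78, 9.02 and 8.93 in the vehicle libraries. PAHSA replicate 4 lay above vehicle replicate 3 and the other PAHSA values below all vehicle values. It differed by -0.29 (SE 0.11, limma unadjusted p = 0.0205, adjusted p = 0.671), and by -0.18 (adjusted p = 0.722 in limma) under quantile normalization. Its partner Mcfd2 differed by -0.029 (SE 0.14). Surf4, a receptor for many soluble cargoes, differed by -0.11 (SE 0.11) and the lectin gene Lman2 by -0.061 (SE 0.12). All 4 differences in this group were negative, with a median of -0.088, but Surf4 and Lman2 were at 0.073 and 0.023 under quantile normalization.

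Of the tethers, Golgi matrix genes and the SNARE, 3 of 4 had negative differences (2 of 4 under quantile normalization). Uso1 encodes p115, the tether that captures ER-derived vesicles at the Golgi. Values of Uso1 were 7.89, 8.13, 8.03 and 8.25 log2 CPM across the PAHSA libraries, against 8.53, 8.32, 8.24 and 8.20 across the vehicle libraries. PAHSA replicate 4 was within the vehicle range and replicates 1, 2 and 3 below it. Uso1 differed by -0.25 (SE 0.11, limma unadjusted p = 0.0443, adjusted p = 0.671), and by -0.020 with the stellate covariate. Uso1 (ENSMUSG00000029407, protein-coding) spans positions 92137938 to 92202798 of chromosome 5 in GRCm38. Its binding partner on the Golgi, Golga2 (GM130), differed by -0.18 (SE 0.18), the stacking protein gene Gorasp2 by -0.057 (SE 0.091) and the vesicle SNARE gene Sec22b by 0.018 (SE 0.099).

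Per kilobase of exon, levels of the 49 genes spanned more than 2 orders of magnitude. The top was held by Tmed2 at 322 ± 36.1 CPM per kb in PAHSA and 386 ± 14.7 in vehicle islets (SD, n = 4 each, as for all values in this paragraph). Arf1 followed at 259 ± 26.6 in PAHSA and 273 ± 15.3 in vehicle islets, then Surf4 at 235 ± 35.6 in PAHSA and 253 ± 10.9 in vehicle islets. Tmed3 came next at 212 ± 21.7 in PAHSA and 206 ± 12.4 in vehicle islets. In PAHSA islets Surf4 did not differ beyond the spread from either neighbour in that order. Coatomer subunits, which work in equal numbers, were led by Cope at 126 ± 18.4 CPM per kb in PAHSA and 128 ± 9.01 in vehicle islets. Copa, Copb2, Copz1, Copb1 and Copg1 lay between 50.9 ± 7.84 (Copg1) and 73.9 ± 9.43 (Copa) in PAHSA islets, and between 54.7 ± 4.13 (Copg1) and 77.7 ± 5.36 (Copa) in vehicle islets. Arcn1 was below them at 32.9 ± 6.86 in PAHSA and 36.3 ± 1.86 in vehicle islets. Copb2 was at 60.9 ± 5.69 in PAHSA and 74.4 ± 7.96 in vehicle islets, and Copz1 at 61.3 ± 6.55 in PAHSA and 68.7 ± 7.49 in vehicle islets. Copb2 and Copz1, next to each other in this order, lay within 1 SD of each other in both groups. At the bottom stood Tmed5 at 4.61 ± 0.481 in PAHSA and 4.71 ± 1.37 in vehicle islets, and Sec16b at 4.50 ± 1.71 in PAHSA and 3.18 ± 0.63 in vehicle islets, within their spread of each other in PAHSA islets. Sec24a was lowest, at 1.504 ± 0.325 CPM per kb in PAHSA and 2.19 ± 0.194 in vehicle islets. These levels divide by the union of all annotated exons, which is longer than most single transcripts.

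**Figure D4:**
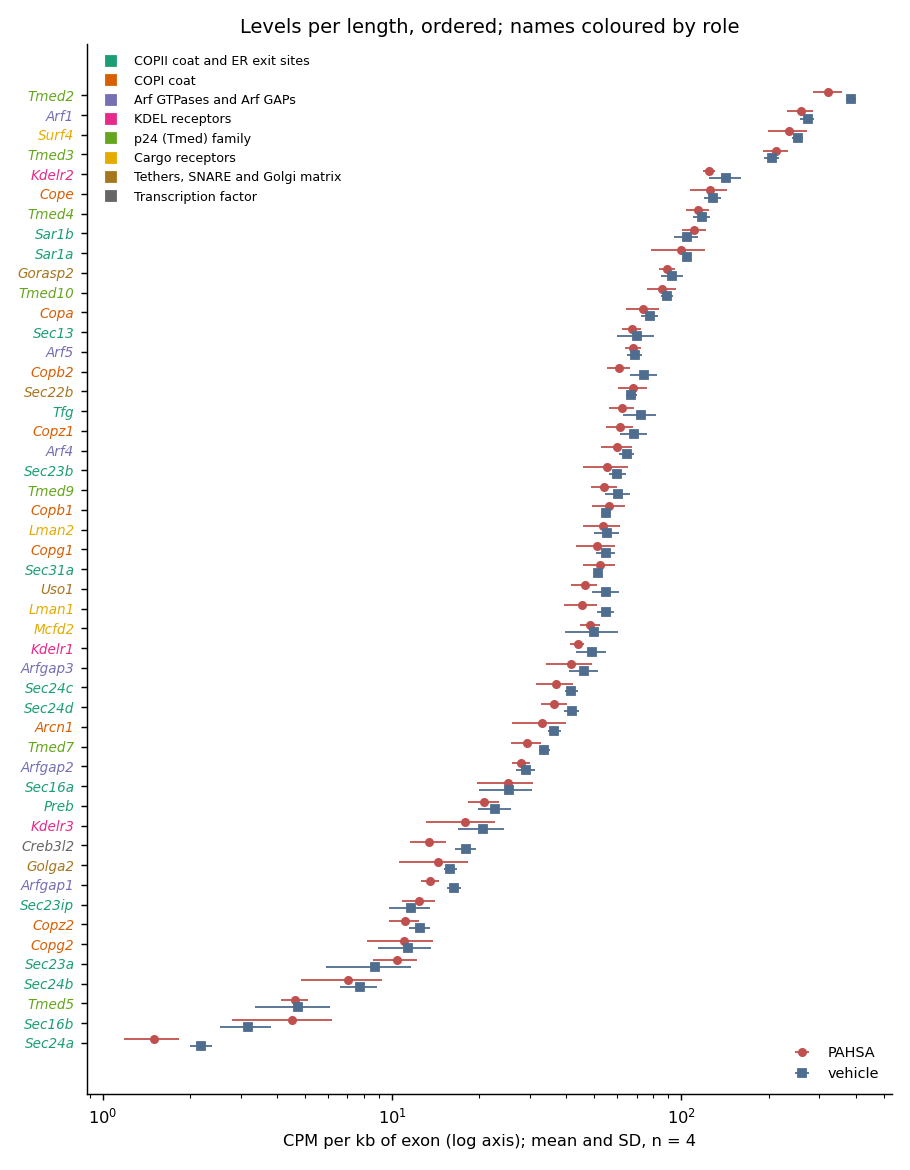
Level of each member as CPM per kb of annotated exon (x axis, logarithmic), ordered from the highest to the lowest mean; circles are PAHSA and squares vehicle means of 4 libraries, with SD. Tmed2 is highest at 322 CPM per kb in PAHSA and 386 in vehicle islets, and Sec24a lowest at 1.504 in PAHSA and 2.19 in vehicle islets.

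Many coat subunits exist as paralogue pairs, and the ratio of 2 paralogues within a library does not depend on the factor by which that library was scaled. For 9 pairs the ratio was compared between groups by an exact permutation test (two-sided, 70 assignments, smallest possible p 0.0286), and 0 pairs passed an adjusted p of 0.05 or an unadjusted one. The smallest p was that of Sec24a against Sec24b, whose log2 difference within a library was -1.35 ± 0.246 in PAHSA and -0.98 ± 0.286 in vehicle islets (SD, n = 4 each; exact permutation p = 0.0857, adjusted 0.771 over 9 pairs). Sec24b itself was at 4.54, 5.43, 5.68 and 5.68 log2 CPM across the PAHSA libraries, against 5.63, 5.70, 5.19 and 5.60 across the vehicle libraries.

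Per kb of annotated exon the Sar1 pair was balanced: Sar1b made up 53.0% ± 3.55 of the CPM per kb of the pair in PAHSA and 49.9% ± 2.01 in vehicle islets (SD, n = 4 each; exact permutation p of the log2 ratio = 0.2). This share rests on exon lengths of 3.74 kb for Sar1a and 1.255 kb for Sar1b, and the shares below rest on such lengths too. Before division by length, Sar1b minus Sar1a was -1.40 log2 units in PAHSA and -1.58 in vehicle islets. Sar1a was at 8.28, 8.43, 8.42 and 8.94 log2 CPM across the PAHSA libraries, against 8.56, 8.61, 8.65 and 8.62 across the vehicle libraries. Sar1b was at 7.07, 7.17, 6.95 and 7.27 log2 CPM across the PAHSA libraries, against 6.92, 7.16, 7.13 and 6.90 across the vehicle libraries. PAHSA replicate 4 held the highest value of both. Sec23b provided 83.9% ± 4.35 of the Sec23 pair in PAHSA and 87.4% ± 3.78 in vehicle islets (exact permutation p = 0.286, n = 4 each). Its own values were 8.12, 8.59, 8.31 and 8.70 log2 CPM across the PAHSA libraries, against 8.47, 8.65, 8.48 and 8.64 across the vehicle libraries, and PAHSA replicates 1 and 3 lay below the vehicle range. Sec24d and Sec24c were even, with Sec24d at 49.7% ± 4.04 of that pair in PAHSA and 50.03% ± 2.75 in vehicle islets (exact permutation p = 0.886, n = 4 each). Sec16b was the minor form, at 15.6% ± 6.95 in PAHSA and 11.5% ± 2.94 in vehicle islets (exact permutation p = 0.371, n = 4 each), beside Sec16a at 7.69, 7.96, 7.47 and 8.19 log2 CPM across the PAHSA libraries, against 7.82, 7.87, 7.45 and 8.19 across the vehicle libraries. In Sec16a both groups covered nearly the same range.

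In coatomer, Copg1 and Copz1 dominated. Copg2 took 18.1% ± 6.21 of its pair in PAHSA and 17.2% ± 3.38 in vehicle islets (exact permutation p = 0.886, n = 4 each), and was highest in PAHSA replicate 1, where Copg1 was lowest. Copg1 was at 8.81, 9.20, 9.11 and 9.35 log2 CPM across the PAHSA libraries, against 9.37, 9.22, 9.10 and 9.24 across the vehicle libraries. Copg2 was at 6.28, 5.64, 5.68 and 5.54 log2 CPM across the PAHSA libraries, against 5.54, 5.70, 5.87 and 6.22 across the vehicle libraries. Both groups thus spanned about the same range in Copg2, with 1 high library each. Copz2 took 15.4% ± 2.84 of its pair in PAHSA and 15.5% ± 1.64 in vehicle islets (exact permutation p = 0.943, n = 4 each). Copz1 was at 7.78, 7.61, 7.85 and 7.98 log2 CPM across the PAHSA libraries, against 7.90, 8.02, 8.16 and 7.80 across the vehicle libraries. Copz2 was at 4.73, 4.77, 4.44 and 4.48 log2 CPM across the PAHSA libraries, against 4.75, 4.63, 4.92 and 4.84 across the vehicle libraries. The groups overlapped in both zeta subunits. Kdelr2 outweighed Kdelr1, with 74.0% ± 1.21 of their sum in PAHSA and 74.3% ± 2.40 in vehicle islets, a ratio that varied least of the 9 among PAHSA libraries. Kdelr1 was at 6.28, 6.31, 6.37 and 6.46 log2 CPM across the PAHSA libraries, against 6.36, 6.48, 6.75 and 6.47 across the vehicle libraries. Kdelr3, the weakest of the 3, was at 4.11, 4.69, 4.599 and 5.07 log2 CPM across the PAHSA libraries, against 4.69, 4.602, 4.91 and 5.17 across the vehicle libraries. PAHSA replicate 1 was the lowest library for both. The p of both KDEL receptor ratios was 0.8 (exact permutation, n = 4 each).

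**Figure D5:**
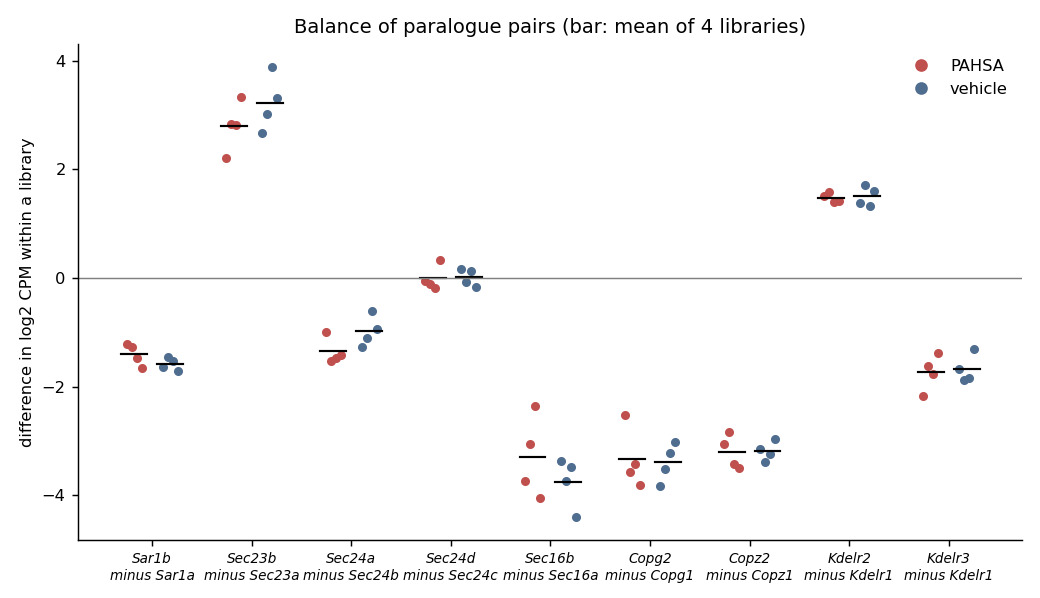
Log2 CPM of the first gene minus that of the second within each library (y axis) for 9 paralogue pairs, PAHSA left and vehicle right in each pair; bars are means of 4 libraries. The groups overlap in every pair, and the Sec24a and Sec24b pair has the lowest exact permutation p of 0.0857.

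Neighbouring genes of the same route, 70 listed by name and 67 tested, had a median of -0.074. This was closer to 0 than that of the members, a gap that was not tested. Of the neighbours 45 had negative differences (67.2%, against 50.9% of all genes tested) and 22 positive ones, and 0 passed over all genes. The groups did not overlap for 2 lower neighbours (2.99%, against 1.95% of all genes tested) and 2 higher ones (against 2.06%), shares near the background. At an unadjusted p under 0.05, 0 were lower and 2 higher (2.99%, against 3.02% of all genes), a share at the background. These 2 were Trappc12 and Trappc8, both subunits of TRAPP, the complex that tethers vesicles and activates Rab1. Trappc12 was at 6.10, 5.81, 6.14 and 6.15 log2 CPM across the PAHSA libraries, against 5.74, 5.63, 5.71 and 5.69 across the vehicle libraries. All its PAHSA values lay above the vehicle values, and it differed by 0.36 (SE 0.13, limma unadjusted p = 0.0171, adjusted p = 0.671). Trappc8 was at 5.75, 6.15, 6.26 and 6.35 log2 CPM across the PAHSA libraries, against 5.66, 5.20, 5.12 and 6.16 across the vehicle libraries, a difference of 0.59 (SE 0.23, limma unadjusted p = 0.0280, adjusted p = 0.671), and its groups overlapped. The next were the golgin gene Golga5, at -0.27 (SE 0.14, limma unadjusted p = 0.0787, adjusted p = 0.714), and Trappc1, at 0.22 (SE 0.12, limma unadjusted p = 0.0927, adjusted p = 0.723). Of the 14 TRAPP genes 5 had negative differences. In the other lists, 12 of 16 ER-Golgi SNARE genes, 12 of 13 genes of Rab GTPases, Arf exchange factors and Golgi tethers, 13 of 19 other cargo receptor, exit site and ERGIC genes and 3 of 5 transcription factor genes had negative differences. Under quantile normalization the counts were 6 for TRAPP and 12, 9, 13 and 2 for the others.

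Some values are less certain than their error. The library kit does not mark the strand, and 11 of the 49 members share exon sequence with a gene on the opposite strand that is also in the table, among them Copa (with Ncstn), Surf4 (with Surf2), Preb (with Abhd1), Kdelr3 (with Ddx17) and Copg2 (with Mest). Reads of close paralogues such as Sar1a and Sar1b, or Arf1 and its relatives, were shared out by the authors' transcript quantification.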

How the data were processed

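RNA of pancreatic islets was sequenced in 4 PAHSA and 4 vehicle libraries; extraction was with a column kit and library preparation with Nextera XT, per the labels' protocols. The deposited values are log2 CPM for 13725 Ensembl identifiers, which the authors had already filtered for low genes; kallisto and limma are named, without versions, per the submitters' processing notes, and genome build and annotation were not given in the sources used here. The repeated lowest value of each column equals 0.5 counts, which gave estimated counts, used only to describe depth; 47.8% to 51.5% of them were within 0.01 of a whole number.

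Symbols, positions and exon lengths came from GENCODE release M21 (GRCm38), with 56 identifiers unmatched, and promoters from RefSeq (GRCm38.p6). Genes with a mean log2 CPM over 0 were fitted with limma 3.58.1 in R 4.3.3 (lmFit and trended eBayes; two-sided; group as the only term), with Benjamini-Hochberg adjustment over all 12231 genes and a threshold of 0.05; the procedure was tested on simulated data. Differences are PAHSA minus vehicle in log2 CPM. Alternatives were quantile normalization, other filters, log2(CPM + 1), no variance trend, a replicate block, acinar or stellate marker means as covariates, and leaving out each library. The replicate block used the label numbers, of which only 1, 3 and 4 occur in both groups. PAHSA replicate 2 and vehicle replicate 5 thus did not contribute to its differences. Values in every library are given for the 12 members with the smallest p, for the first of each role and for both genes of each paralogue pair, and 4 neighbouring genes are named. The members and lists were chosen with earlier results of these data known. Immune and endothelial marker lists had 2 genes each in the table and were not used further.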

Additional observations from a re-analysis of the deposited data

Results flagged for a closer look

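In 4 of 116 groups of 4 libraries examined, 1 library lay far from the other 3 of its group (chance flags about 1 in 20). Arfgap3 was low in PAHSA replicate 1, at 6.87 log2 CPM where the nearest other PAHSA library had 7.403, and also low in vehicle replicate 5, at 7.20 where the nearest other vehicle library had 7.52. Lman2 was high in vehicle replicate 1, at 8.98 log2 CPM where the next vehicle library had 8.72. Gorasp2 was high in vehicle replicate 5, at 8.77 log2 CPM where the next vehicle library had 8.54.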

How the results depend on the processing

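No member passed an adjusted p of 0.05 under any alternative run, and 0 genes did over all genes. The 7 members at an unadjusted p under 0.05 (all lower, 14.3%) became 3 under quantile normalization (against 3.66% of all genes lower), 3 in eBayes without trend (3.6%), 2 with the replicate block (3.65%, so near the background) and 0 with stellate markers as covariate (2.97%). They were 2 to 11 when 1 library was left out (2 without PAHSA replicate 1, against 3.61%, and 11 without PAHSA replicate 4, against 4.96%). The 4 members whose groups did not overlap became 13 without the libraries numbered 4, an alternative chosen after seeing the data (all lower, against 7.5% of all genes, since fewer libraries separate more often), and 4 to 11 when 1 library was left out (against 3.06% to 4.33% of all genes). Under quantile normalization 3 were lower and 1 higher (against 1.7% and 2.42% of all genes), the 1 higher being near the background. The median of the members was -0.020 with the stellate covariate, in place of -0.11, and ran from -0.14 to -0.042 over the fits without 1 library. The 2 of 67 neighbouring genes (against 894 of 12231 genes in both directions) became 1 in eBayes without trend (against 803) and 1 with the stellate covariate (against 652). They were 6 without the libraries numbered 4 (against 1014) and 1 to 4 with 1 library left out (against 669 to 968). The cause was not tested. The filters on low values and log2(CPM + 1) left 40 of 49 members lower.

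Same-numbered libraries did not deviate together from their group means (correlations over genes of -0.020, -0.017 and -0.022 for the numbers 1, 3 and 4), so the numbers were not taken as pairs. Under the block, which rests on the libraries with these numbers alone, 39 of 49 members were lower, with a median of -0.16. Of 1000 comparisons of 62 single values with their alternatives, 905 kept their direction and 95, in 32 values, changed sign; none of these was past the threshold. The differences with a changed sign were Sec16a 0.029, Copa 0.099, Copg1 0.018, Cope 0.058, Arf1 0.035, Arf5 0.0056, Tmed4 0.013, Tmed10 0.049, Lman2 0.023, Surf4 0.073, Gorasp2 0.014, Copg2 against Copg1 -0.065 and Kdelr2 against Kdelr1 0.0031 under quantile normalization. Others were Sec23ip -0.020, Sec31a -0.037, Copb1 -0.089, Copg2 0.059, Arf5 0.031, Tmed5 -0.13, Sec22b -0.10 and Golga2 0.080 with the acinar markers as covariate. Others were Sar1a 0.097, Sec13 0.063, Sec16a 0.18, Sec23b 0.052, Sec24b 0.14, Copa 0.050, Copg1 0.10, Cope 0.067, Arcn1 0.015, Arf5 0.016, Arfgap3 0.060, Tmed4 0.045, Tmed10 0.0034, Lman2 0.11 and Mcfd2 0.14 with the stellate markers as covariate. Those with a changed sign were Sec16a 0.069, Sec31a -0.068, Copg2 0.13, Arfgap2 0.0098, Tmed3 -0.024, Tmed5 -0.12, Gorasp2 0.034 and Kdelr3 against Kdelr1 0.022 with the replicate block. Those with a changed sign were Sec13 0.013, Sec23ip -0.032, Sec31a -0.033, Copb1 -0.050, Copg2 0.047, Arf5 0.024, Tmed5 -0.0057 and Sec22b -0.089 without the libraries numbered 4. Leaving out 1 library changed the sign of these differences over the ranges given: Sec13 -0.13 to 0.026, Sec16a -0.13 to 0.11, Sec24b -0.31 to 0.069, Sec31a -0.047 to 0.081, Copa -0.14 to 0.010, Copb1 -0.054 to 0.089, Copg2 -0.21 to 0.079, Cope -0.098 to 0.061, Arf5 -0.050 to 0.024, Tmed3 -0.011 to 0.099, Tmed4 -0.081 to 0.017, Tmed5 -0.20 to 0.16, Lman2 -0.14 to 0.034, Mcfd2 -0.12 to 0.10, Sec22b -0.059 to 0.059, Gorasp2 -0.093 to 0.0057, Sec24d against Sec24c -0.13 to 0.045, Copg2 against Copg1 -0.21 to 0.22, Kdelr3 against Kdelr1 -0.18 to 0.078, Copz2 against Copz1 -0.14 to 0.085 and Kdelr2 against Kdelr1 -0.092 to 0.039.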
